A study of Mus musculus with 39 samples.

Results

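MHC class II genes encode the cell-surface molecules that show peptides from the endosomes to CD4+ T cells. The genes described here are H2-Aa and H2-Ab1, the alpha and beta chains of one mouse class II molecule, H2-Eb1, the beta chain of the other, H2-DMa, the alpha chain of the DM molecule that loads peptide onto class II in endosomes, and Ciita, the transactivator that drives transcription of the class II genes. These 5 genes were listed by name and were taken from the 22180 genes that a probe set of the array names alone. Each of the 5 had exactly 1 such probe set, so none was read from a choice between probe sets. On GRCm38.p6, H2-DMa lies on chromosome 17 from 34119693 to 34139101, H2-Ab1 from 34263227 to 34269418, H2-Aa from 34282744 to 34287823 and H2-Eb1 from 34305867 to 34316674. Ciita lies on chromosome 16, from 10480014 to 10531064.

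Class II molecules are carried by B cells, dendritic cells and activated macrophages, and by some monocytic and myeloid leukaemia cells. Ciita binds no DNA itself. It is recruited by the RFX, CREB and NF-Y factors assembled on the X and Y boxes of class II promoters, and interferon gamma is a classical inducer of it.

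The 39 samples were sorted donor cells, CD45.1+, from the marrow of mice that had received a bone marrow transplant and were killed at end stage. The 3 leukaemia arms were AE9a, which is the shortened splice variant of AML1-ETO, the fusion protein of t(8;21) leukaemia, AE9a together with miR-126 (AE9a+miR-126), and AE9a in cells lacking miR-126 (miR-126KO+AE9a). Every leukaemia arm, the AE9a arm that serves as its control included, therefore carries AE9a. Each arm was followed through 4 passages from recipient to recipient, with 3 mice per arm and passage, and 3 normal controls (NC) came from the first passage. The sources used here give neither strain, age, vector nor the number of founding donors, nor which earlier mouse seeded which recipient. The p-values therefore measure the spread between these recipients, which may share a donor.

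The deposited values are log2 expression values, 1 array per mouse. Their medians ran from 5.38 to 5.76 and their standard deviations over probe sets from 1.43 to 2.08. An SD under 1.8 was seen in 8 arrays, and 7 of these were among the 9 arrays of AE9a+miR-126 at passages 2 to 4. One probe set carries the symbols of Mir126a and of Egfl7, the gene that hosts it, and read 5.90 to 11.6 in the 12 mice given miR-126 and 2.76 to 3.88 in the other 27. It did not separate the knockout (2.77 to 3.15) from AE9a (2.76 to 3.04), so it checks the added arm only. Ptprc, the gene of CD45, read 9.31 to 11.7 over all mice, while the stromal gene Col1a1 read 5.87 to 7.41 and the endothelial gene Cdh5 5.29 to 6.76.

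The sequences behind the comparison are the added miRNA and the promoter boxes at which Ciita acts. The mature strand of miR-126 in RefSeq lies at chr2:26591402-26591423 on the plus strand of GRCm38.p6. Its seed, bases 2 to 8, is in capitals.
mmu-miR-126a-3p: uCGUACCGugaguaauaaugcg

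RefSeq promoters, 300 bases running from 250 before to 50 after the start, were listed for 3 of the 5 genes. They were searched on both strands for an X box pattern, AGNNACNGA, and a Y box core, ATTGG or CCAAT on the other strand, and for both on 1 strand with at most 40 bases between them. H2-Eb1 held the pair, with 24 bases between the boxes. H2-Aa held the Y core and no match to the X pattern. The pattern has 9 letters, so an X box of other letters would be missed, in H2-Aa as elsewhere. One of the 2 H2-DMa windows held the Y core and neither held the pair. Among the other class II genes, H2-DMb1, the beta chain partner of H2-DMa, held the pair with 25 bases between, and so did H2-Eb2. Of all 32851 windows, 17.7% held the X pattern, 37.4% the Y core and 0.521% the pair. The stretches show the boxes found in H2-Eb1 and H2-Aa, which were lower with added miR-126, and in H2-DMb1, which did not pass the test. H2-DMb1 read only 4.60 to 5.83 over all 39 mice, near the array medians (5.38 to 5.76), so a fall may not show there. Capitals mark the X pattern and the Y core. The H2-Eb1 stretch is chr17:34305753-34305824 on the plus strand, the H2-Aa stretch is chr17:34287855-34287926 on the minus strand, and the H2-DMb1 stretch is chr17:34153075-34153146 on the plus strand, all on GRCm38.p6.
H2-Eb1: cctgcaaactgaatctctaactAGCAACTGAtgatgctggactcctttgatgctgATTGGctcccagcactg
H2-Aa: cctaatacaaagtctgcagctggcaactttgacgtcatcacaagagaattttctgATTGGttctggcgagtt
H2-DMb1: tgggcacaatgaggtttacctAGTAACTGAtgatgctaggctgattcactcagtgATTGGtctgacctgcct

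The class II chains were high in normal donor cells, in AE9a and in the knockout, and low in the added miR-126 arm from passage 2 on. H2-Aa read 9.86, 10.04 and 10.62 (log2) in the normal mice. In AE9a it read 9.40, 9.62 and 9.995 at passage 1, 9.73, 10.10 and 10.15 at passage 2, 8.02, 10.71 and 10.84 at passage 3, and 10.31, 10.38 and 10.46 at passage 4. In the knockout it read 9.72, 9.73 and 10.16, then 9.11, 9.85 and 10.96, then 9.62, 9.73 and 10.08, and at passage 4 9.18, 9.29 and 9.75. All of these mice but 1 lay above 9, the exception being replicate 1 of AE9a at passage 3. With added miR-126, H2-Aa read 5.97, 9.24 and 9.88 at passage 1, 5.43, 5.62 and 6.39 at passage 2, 5.54, 5.60 and 5.94 at passage 3, and 4.06, 4.68 and 4.68 at passage 4. Replicate 2 of passage 1 was already at the level of the later passages, while the other mice of that passage were not.

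H2-Ab1, the chain that pairs with it, followed the same course. The normal mice read 10.65, 10.71 and 11.03. AE9a read 9.44, 9.59 and 10.01 at passage 1, 10.13, 10.53 and 10.66 at passage 2, 8.16, 11.38 and 11.55 at passage 3, and 10.79, 10.86 and 11.05 at passage 4. The same AE9a mouse was the low one. The knockout read 10.37, 10.40 and 10.79 at passage 1, 10.20, 10.29 and 11.73 at passage 2, 10.27, 10.40 and 10.86 at passage 3, and 9.55, 9.91 and 10.32 at passage 4. The arm with added miR-126 read 5.65, 9.39 and 9.77 at passage 1, 6.12, 6.39 and 6.45 at passage 2, 5.45, 5.74 and 6.03 at passage 3, and 4.89, 5.10 and 5.49 at passage 4. From passage 2 its mice did not overlap with those of either other arm.

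H2-Eb1 read 9.16, 9.33 and 9.49 in normal cells. In AE9a it read 8.59, 8.72 and 9.19, then 9.04, 9.28 and 9.46, then 7.39, 10.03 and 10.39, and at passage 4 9.60, 9.79 and 9.92. The knockout read 8.98, 9.12 and 9.65, then 8.77, 9.20 and 10.44, then 8.75, 8.99 and 9.26, and at passage 4 8.64, 8.67 and 8.72. With added miR-126 it read 6.29, 8.51 and 8.89 at passage 1, 5.84, 6.88 and 6.97 at passage 2, 5.81, 5.88 and 6.66 at passage 3, and 5.78, 6.45 and 7.09 at passage 4. Here too 1 mouse of passage 1 was low, and later mice of this arm lay below all mice without added miR-126.

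H2-DMa, which edits the peptide rather than presenting it, differed from the chains at passage 1. It read 9.25, 9.53 and 9.63 in normal cells. In AE9a it read 7.62, 7.98 and 8.34 at passage 1, 9.26, 9.61 and 9.82 at passage 2, 7.89, 10.11 and 10.15 at passage 3, and 9.35, 9.61 and 9.73 at passage 4. AE9a lay below normal at passage 1 and overlapped with it later, and 1 mouse of passage 3 was again low. The knockout read 8.76, 9.55 and 9.73, then 7.84, 8.63 and 9.31, then 9.74, 9.996 and 10.10, and at passage 4 9.28, 9.42 and 9.52. With added miR-126 it read 8.58, 8.61 and 8.84 at passage 1, above all 3 AE9a mice of that passage, then 6.93, 7.19 and 7.30, then 6.67, 7.04 and 7.05, and at passage 4 7.22, 7.24 and 7.34.

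Ciita, the transactivator, spanned a narrower range than the genes it drives. Over all 39 mice it lay between 5.59 and 7.16, at percentiles 53.1 to 73.7 of the arrays. That is near the array medians (5.38 to 5.76), so a larger fall may not show there. It read 6.95, 7.07 and 7.16 in normal cells. In AE9a it read 6.28, 6.32 and 6.49 at passage 1, 6.02, 6.09 and 6.26 at passage 2, 6.42, 6.69 and 6.92 at passage 3, and 6.33, 6.43 and 6.55 at passage 4. The knockout read 6.62, 6.69 and 6.90, then 6.10, 6.50 and 6.53, then 6.38, 6.44 and 6.79, and at passage 4 6.25, 6.25 and 6.26. With added miR-126 it read 5.997, 6.06 and 6.31, then 5.78, 6.13 and 6.29, then 6.19, 6.33 and 6.38, and at passage 4 5.59, 6.30 and 6.43. All 36 leukaemic mice lay below all 3 normal mice, and the arms overlapped with each other. The gap was small, from 6.92 in AE9a at passage 3 to 6.95 in normal cells. The share of all genes that separate so was not counted.

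**Figure D1:**
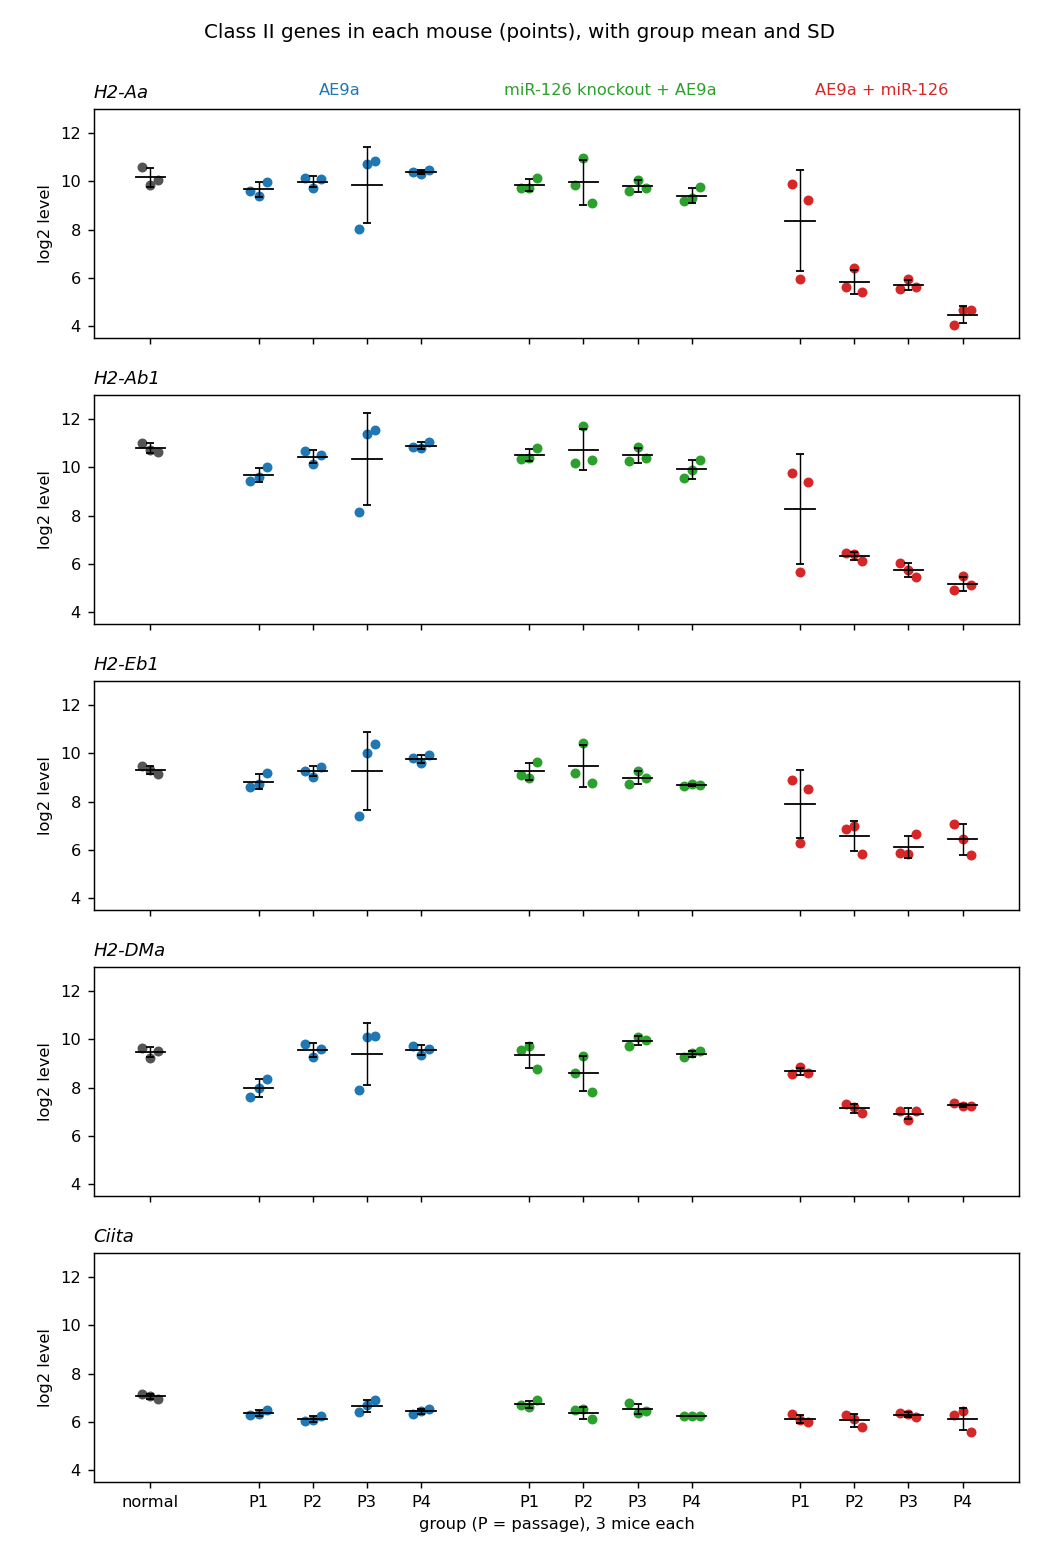
Deposited log2 level of each gene (vertical axis) in every mouse (points, 3 per group), with the group mean (line) and SD (bars), for normal cells and 3 arms at passages 1 to 4. H2-Aa with added miR-126 sits between 4.06 and 6.39 at passages 2 to 4, below every mouse without added miR-126 (8.02 or more), while Ciita overlaps between arms.

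The division at passage 2 was noticed in these values and is given as a description. For 4 of the 5 genes, all 9 mice with added miR-126 at passages 2 to 4 lay below all 27 mice without it, a separation found in 0.257% of the genes tested. The highest of the 9 against the lowest of the 27 was 6.39 against 8.02 for H2-Aa, 6.45 against 8.16 for H2-Ab1, 7.09 against 7.39 for H2-Eb1 and 7.34 against 7.62 for H2-DMa. Ciita did not separate, at 6.43 against 6.02. Ranked within its own array, H2-Aa lay at percentiles 96.3 to 98.4 of all probe sets in normal cells and 11.97 to 67.1 in those 9 mice. H2-Ab1 went to percentiles 28.8 to 69.5, H2-Eb1 to 55.2 to 80.0 and H2-DMa to 73.4 to 85.0. Of the 9 arrays, 2 had an SD within the range of the other arms, replicate 3 of passage 2 (1.93) and replicate 3 of passage 4 (2.01). In these H2-Aa read 5.43 and 4.68, H2-Ab1 6.12 and 5.10, H2-Eb1 5.84 and 5.78, and H2-DMa 6.93 and 7.22.

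The order of the 13 group means was alike for the chains. AE9a at passage 4 was highest for H2-Aa (10.38 ± 0.08, SD, n = 3), H2-Ab1 (10.90 ± 0.14) and H2-Eb1 (9.77 ± 0.16). The 4 groups with added miR-126 took the lowest places for each chain, passage 1 uppermost among them (8.36 ± 2.10 for H2-Aa). For the chains, neighbours within the upper 9 groups differed by less than the larger of their SDs. For H2-DMa the knockout at passage 3 was highest (9.95 ± 0.19), and AE9a at passage 1 (7.98 ± 0.36) lay directly above the late groups with added miR-126. For Ciita the normal group was highest (7.06 ± 0.10) and added miR-126 at passage 2 lowest (6.06 ± 0.26). Over the 13 group means H2-Aa and H2-Ab1 correlated at r = 0.99, H2-Aa and H2-Eb1 at 0.97, and H2-DMa with the chains at 0.87 to 0.89. Ciita correlated with the other 4 at 0.52 to 0.59. These describe groups that share their arrays.

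Added miR-126 was compared with AE9a alone, the question being what extra miR-126 does to the leukaemia. Averaged over 4 passages, H2-Ab1 differed by -3.97 ± 0.34 (SE) on the log2 scale, 15.7-fold lower (limma, adjusted p = 5.57e-10, 12 mice per arm). H2-Aa was 14.8-fold lower (adjusted p = 1.71e-10), H2-Eb1 5.77-fold (adjusted p = 3.98e-08) and H2-DMa 3.08-fold (adjusted p = 6.83e-08). Ciita was 1.19-fold lower, a difference of -0.25 with a 95% interval of -0.43 to -0.07 (limma, adjusted p = 0.0168). The Ciita values lay near the array medians, where a larger fall may not show. All 5 were lower, against 24.3% of all genes, and 4 of 5 were lower by at least 2-fold, against 4.55%. Counted from the most negative of all genes, H2-Ab1 ranked 1, H2-Aa 3, H2-Eb1 53, H2-DMa 261 and Ciita 5995. The Ciita call was lost after cyclic loess (-0.16, adjusted p = 0.237) and quantile normalization (-0.14, adjusted p = 0.239), and without passage 3 or 4. Over 41 settings its adjusted p reached 0.239 and the call held in 35. With 1 mean per arm and passage as the unit, the adjusted p was 0.107 for the other 4 genes, which over the 41 settings was their only loss of the call, and 0.156 for Ciita. Since fewer cells of a type and less RNA per cell cannot be told apart in bulk samples, none of these values says which occurred.

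By passage, no member passed at passage 1, where 0.00451% of genes were lower. At an unadjusted p under 0.05, 2 members passed there, H2-Aa (a difference of -1.31) and H2-Ab1 (-1.41). The share of all genes at an unadjusted p under 0.05 was not counted, here or below, so such member counts have no background. Without replicate 2 of the added arm the passage 1 differences were -0.11 for H2-Aa, -0.10 for H2-Ab1 and -0.13 for H2-Eb1. At passage 2, H2-Aa, H2-Ab1, H2-Eb1 and H2-DMa were lower (4 of 5 against 5.68% of genes), by 18.1-fold, 17.4-fold, 6.47-fold and 5.37-fold. At passage 3 the same 4 were lower (24.8% of genes were), by 17.9-fold, 24.6-fold, 8.89-fold and 5.52-fold. At passage 4 they were lower (12% of genes were), with differences of -5.91 for H2-Aa, -5.74 for H2-Ab1, -3.33 for H2-Eb1 and -2.29 for H2-DMa. The 3 mice with added miR-126 then lay at percentiles 11.97, 22.7 and 33.1 of their arrays for H2-Aa and 28.8, 42.9 and 44.5 for H2-Ab1. The deposited values carry no detection call, and whether these low values lie above background was not tested, so every fold of H2-Aa and H2-Ab1 against the late mice is a ratio of deposited values and not a measured fold in RNA. Ciita passed at no single passage in these fits, with differences of -0.24, -0.06, -0.38 and -0.33. At passage 3 it passed without replicate 1 of AE9a (-0.50, limma adjusted p = 0.0312). Without that mouse the passage 3 differences of the chains were -5.08 for H2-Aa, -5.72 for H2-Ab1 and -4.09 for H2-Eb1.

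**Figure D2:**
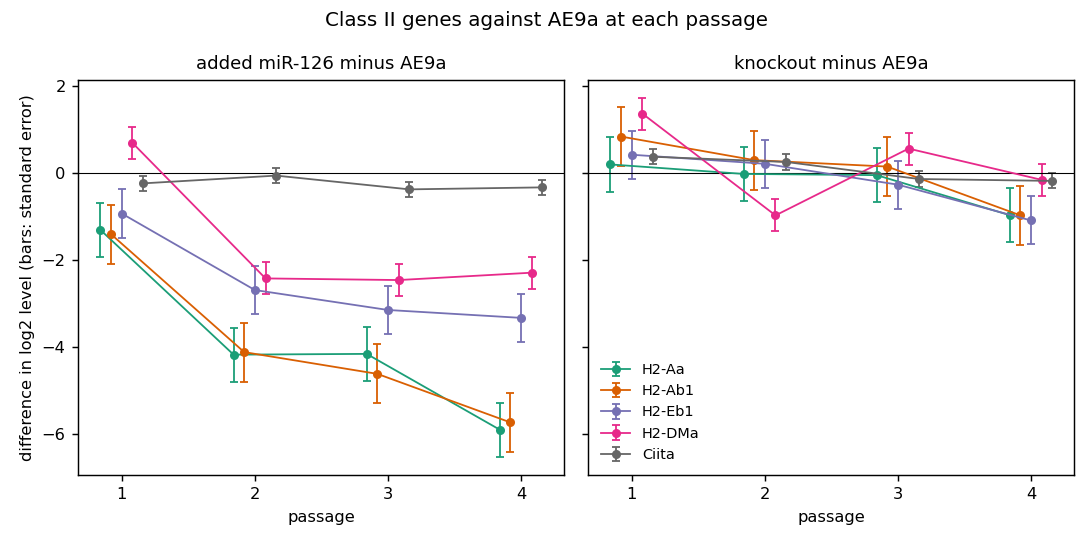
Difference in log2 level from AE9a at each passage (horizontal axis), with standard error bars, for added miR-126 (left) and the knockout (right), 3 mice per group. With added miR-126 the difference of H2-Aa goes from -1.31 at passage 1 to -5.91 at passage 4, while the knockout lies between -1.09 and 1.37 for all 5 genes.

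The change of the added miR-126 difference between passages 1 and 4 was tested itself. The change was -4.60 for H2-Aa (limma, adjusted p = 0.0014), -4.33 for H2-Ab1 (0.00504), -2.99 for H2-DMa (0.000499) and -2.40 for H2-Eb1 (0.0462), that is 4 of 5 members against 5.94% of genes. For Ciita the change was -0.09, with an interval of -0.60 to 0.41. The H2-Eb1 call was lost in 9 of 12 fits that left out 1 mouse, and the H2-Eb1 value ran from -3.21 to -1.90. With the replicate number of the labels as a block the H2-Eb1 adjusted p was 0.0559. The H2-Eb1 call was also lost after cyclic loess (limma, adjusted p = 0.226) and quantile normalization (0.133). It was lost too with the 4 groups fitted alone (0.0895) and with the SD of each array as a covariate (0.0962). Without the arrays of low spread, H2-Ab1 (adjusted p = 0.0552) and H2-Eb1 (0.0771) were no longer called.

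Within the added miR-126 arm, H2-Aa and H2-DMa fell between passages 1 and 2 (2 of 5 against 7.1% of genes lower), with differences of -2.55 and -1.54. The H2-Aa call was lost without replicate 1 or 3 of passage 1 or replicate 1 of passage 2, where the value ran as far as -1.79. Without replicate 2 of passage 1, H2-Ab1 (-3.26) and H2-Eb1 (-2.14) passed too. Between passages 1 and 3, H2-Aa, H2-Ab1, H2-Eb1 and H2-DMa fell (24.5% of genes were lower), with differences of -2.67, -2.53, -1.78 and -1.76. The H2-Eb1 call was lost without replicate 1 of passage 1 (-1.28). Between passages 1 and 4, H2-Aa (-3.89), H2-Ab1 (-3.11) and H2-DMa (-1.41) fell (3 of 5 against 13.2%). The H2-Ab1 call was lost with these groups fitted alone (adjusted p = 0.112). H2-Eb1 differed by -1.46 there (limma, adjusted p = 0.052), and by -2.26 without replicate 2 of passage 1 (adjusted p = 0.00313). Between passages 1 and 4 the H2-DMa call was lost after cyclic loess (-0.86, adjusted p = 0.121) and quantile normalization (-0.94, adjusted p = 0.0768), and without the arrays of low spread (-1.45, adjusted p = 0.0731). Ciita did not differ between passage 4 and passage 1 beyond its spread (-0.02, interval -0.37 to 0.34). With array weights the difference was 0.26 the other way (limma, adjusted p = 0.00362), in a fit that called 16509 of 22180 genes.

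The knockout was compared with AE9a in the same way, to ask what loss of miR-126 does. No member passed on average, where 8.17% of genes differed in either direction, and none reached an unadjusted p under 0.05 in limma. The differences and their 95% intervals were -0.21 (-0.85 to 0.43) for H2-Aa, 0.08 (-0.61 to 0.77) for H2-Ab1, -0.18 (-0.75 to 0.38) for H2-Eb1, 0.20 (-0.18 to 0.57) for H2-DMa and 0.08 (-0.10 to 0.26) for Ciita. At passage 1 only H2-DMa passed, 2.58-fold higher than in AE9a (limma, adjusted p = 0.0417; 1 of 5 against 2.09% of genes), and its call was lost in 5 of 6 fits that left out 1 mouse. No member passed at passage 2 (3.99% of genes), passage 3 (1.05%) or passage 4 (1.33%). The counts at an unadjusted p under 0.05 were 1 at passage 2 (H2-DMa, -0.98), 0 at passage 3 and 0 at passage 4. At passage 2 H2-DMa passed without replicate 2 of the knockout, at -1.33. At passage 4 the knockout differences were -0.97 for H2-Aa, -0.97 for H2-Ab1, -1.09 for H2-Eb1 and -0.18 for Ciita, and none of these passed. The change of the knockout difference between passages 1 and 4 passed for no member (0.428% of genes passed). At an unadjusted p under 0.05 it did for 2, H2-DMa (-1.52) and Ciita (-0.56). Fitted on those 4 groups alone, the change passed for H2-Aa, H2-Ab1, H2-Eb1 and H2-DMa, in a fit that called 424 of 22180 genes.

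Added miR-126 and the knockout were also set against each other. This comparison shares its added miR-126 mice with the one against AE9a. All 5 members were lower with added miR-126, against 21.7% of genes, and 4 by at least 2-fold, against 3.73%. H2-Ab1 was 16.6-fold lower, H2-Aa 12.8-fold, H2-Eb1 5.09-fold, H2-DMa 3.53-fold and Ciita 1.26-fold (limma, adjusted p = 0.00331 for Ciita and at most 1.32e-07 for the others). At passage 1 no member passed (0.433% of genes lower at the adjusted threshold), and H2-Ab1 passed without replicate 1 of the added arm (-3.00). An unadjusted p under 0.05 was reached by 4 members, a threshold at which no share of all genes was counted. H2-Aa, H2-Ab1, H2-Eb1 and H2-DMa were lower at passage 2 (2.24% of genes), passage 3 (25.4%) and passage 4 (8.3%). H2-Ab1 was 21.4-fold, 27.3-fold and 27.2-fold lower at these passages. At passage 2 H2-DMa (-1.45) was lost without replicate 2 of the added arm or replicate 1 or 2 of the knockout, where it ran from -1.83 to -1.09 over 6 fits. The Ciita call was lost after cyclic loess (-0.23, adjusted p = 0.0836), after quantile normalization (-0.20, adjusted p = 0.0858) and without passage 1 (-0.23, adjusted p = 0.0718). With the passage as the unit H2-Aa, H2-Ab1 and H2-Eb1 passed, while H2-DMa (adjusted p = 0.0989) and Ciita (0.130) did not.

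Against normal donor cells, AE9a at passage 1 had lower H2-DMa (2.80-fold, limma adjusted p = 0.00942) and Ciita (1.62-fold, adjusted p = 0.0104), 2 of 5 against 5.64% of genes lower. Neither passed without replicate 1 of AE9a at passage 1 (adjusted p = 0.0698 and 0.0558). Ciita was also lower at passage 2 (1.91-fold; 1 of 5 against 5.05% of genes) and passage 4 (1.54-fold; 1 of 5 against 2.09%), the last lost in each of 6 fits without 1 mouse. No member passed at passage 3 (4.31% of genes), where Ciita was at an unadjusted p under 0.05. The passage 1 call of Ciita was also lost after cyclic loess (adjusted p = 0.0744) and quantile normalization (0.0682). H2-Aa, H2-Ab1 and H2-Eb1 passed at none of these 4 passages in AE9a. With the groups of passage 1 fitted alone, H2-Ab1 passed (-1.12, limma adjusted p = 0.00563).

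Added miR-126 at passage 1 had lower H2-Ab1 (5.76-fold, limma adjusted p = 0.0141) and Ciita (1.91-fold, adjusted p = 0.000545) than normal, 2 of 5 against 5.18% of genes. The H2-Ab1 difference of -2.53 became -1.22 without replicate 2 of the added arm and no longer passed (adjusted p = 0.227). It was also lost without replicate 1 of the normal mice (adjusted p = 0.0549) and with the groups fitted alone (0.110). H2-Aa passed without replicate 1 (-2.57) or replicate 3 of the added arm, and H2-Eb1 without replicate 1 (-1.92). At passages 2, 3 and 4 all 5 members were lower than normal, against 14%, 27.3% and 14.5% of genes. The differences of H2-Aa were -4.36, -4.48 and -5.70, with the same limit at the low end, and Ciita was lower by 1.99-fold, 1.69-fold and 1.94-fold.

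The knockout differed from normal in no member at passage 1 (5.91% of genes lower) or passage 3 (4.6%). At an unadjusted p under 0.05 the counts were 0 at passage 1 and 1 at passage 3, Ciita. Ciita was lower at passage 2 (1.60-fold; 1 of 5 against 8.42%) and passage 4 (1.75-fold; 1 of 5 against 3.63%). The passage 2 call was lost without replicate 3 of the knockout (-0.54). Without replicate 2 of the knockout H2-DMa passed at passage 2 (-1.24), and without replicate 1 Ciita passed at passage 3 (-0.65).

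Within AE9a, H2-DMa rose from passage 1 to passage 2 (3.00-fold, limma adjusted p = 0.022; 1 of 5 against 1.34% of genes in either direction) and to passage 4 (2.99-fold, adjusted p = 0.0119; 1 of 5 against 2.94%). The passage 4 call was lost without replicate 1 of passage 1 (adjusted p = 0.0881) or replicate 1 of passage 4 (0.0558), and the passage 2 call in 4 of 6 fits without 1 mouse. None passed at passage 3 against passage 1 (1.01% of genes). There H2-DMa differed by 1.40 at an unadjusted p under 0.05, and without replicate 1 of passage 3 it passed at 2.15. Within the knockout no member differed from passage 1 at passage 2 (5.69% of genes), 3 (1.58%) or 4 (4.04%), with 2, 0 and 1 members at an unadjusted p under 0.05.

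The other class II genes did not go one way. Of 6 other measured chain and DM genes, added miR-126 against AE9a gave 2 lower and 1 higher, while 24.3% of all genes were lower (median -0.27, against 0.08 for all genes). H2-DMb2, a DM beta chain, was lower (-0.95) and so was H2-Eb2 (-0.46), while H2-Ea, an alpha chain, was higher (0.42), with all 39 mice between 4.26 and 5.41. H2-DMb1, whose promoter is shown above, differed by -0.20 (limma, adjusted p = 0.125), with all 39 mice between 4.60 and 5.83, where a fall may not show. H2-Ob and H2-Oa, which form the DO modulator of DM, differed by -0.34 and 0.05. Against normal cells at passage 1 this group was lower in all arms, 3 of 6 in AE9a, 4 in the added arm and 5 in the knockout. Of all genes, 5.64%, 5.18% and 5.91% were lower there. There the differences of H2-DMb2 were -1.49, -1.96 and -2.50 and those of H2-Ob -1.38, -1.72 and -2.20. A probe set that carries the symbols of Cd74, the invariant chain that escorts class II, and of Mir5107 was not read as a gene. It lay at 11.2 to 11.4 in normal cells, 9.46 to 11.7 in AE9a, 10.5 to 11.5 in the knockout and 6.38 to 10.9 with added miR-126.

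Genes that prepare and load the peptide were mostly lower with added miR-126, 10 of 13 against AE9a (median -0.45) and 11 of 13 against the knockout (median -0.66). The shares of all genes lower in these comparisons, which hold for the lists that follow too, were 24.3% and 21.7%. Against AE9a these were led by Lgmn, the endosomal protease legumain (-1.78), the cathepsin gene Ctsd (-1.09) and Ifi30, the lysosomal thiol reductase (-1.002). Against the knockout they were led by Lgmn (-2.27), Ctss, the cathepsin that trims the invariant chain (-1.53), and Ifi30 (-1.41). The knockout against AE9a had 1 of 13 lower, Ctsd at -0.62, where 1173 of all 22180 genes were lower. Against normal at passage 1, Ctsd was higher in AE9a (1.11), and Ctsl (1.88), Lgmn (1.49) and Ctsb (1.01) in the knockout.

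Factors that occupy the class II promoter were lower in 7 of 10 with added miR-126 against AE9a (median -0.40) and in 5 of 10 against the knockout. Nfyb, Nfya and Nfyc, the subunits of the Y box factor, were lower (-0.84, -0.68 and -0.40), as was Kat2b, an acetyltransferase (-0.50). Of the RFX subunits, Rfxap was lower (-0.38), while Rfxank differed by -0.23 (limma, adjusted p = 0.0738) and Rfx5 by 0.06 (0.680). In the 2 late mice with added miR-126 whose arrays had an SD over 1.8, the promoter factors averaged 8.02 and 8.36. They averaged 7.91 to 8.32 in AE9a and 6.91 to 8.36 over all 9 late mice. The part of the arrays of low spread in these lower calls was not tested. Rfx1 was lower in the knockout than in AE9a (-0.44). Crebbp, a coactivator, was higher than normal at passage 1 by 0.69 in AE9a, by 0.73 in the added arm and by 0.57 in the knockout, and Rfx1 was higher in the added arm (0.67).

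Genes that induce or repress Ciita were lower in 9 of 14 with added miR-126, against AE9a (median -0.74) and against the knockout (median -0.44). Against AE9a the list was led by Jak2, a kinase of the interferon gamma receptor (-1.53), Irf4 (-1.27) and Prdm1, which represses Ciita in plasma cells (-1.08). Irf1 (-0.03) and Ifngr1 (0.06) did not pass. Against the knockout it was led by Irf4 (-1.63), Irf2 (-1.14) and Jak2 (-1.05). The knockout against AE9a had 2 of 14 lower, Jak2 at -0.48 and Jak1 at -0.23, where 1173 of all 22180 genes were lower. Against normal at passage 1, Jak2 was higher by 1.75 in AE9a, by 1.74 in the added arm and by 1.52 in the knockout. Prdm1 was higher by 1.06, 1.39 and 2.37 and Irf8 was lower in AE9a (-1.72) and the knockout (-1.22), while Socs1 was higher in the knockout (1.70).

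**Figure D3:**
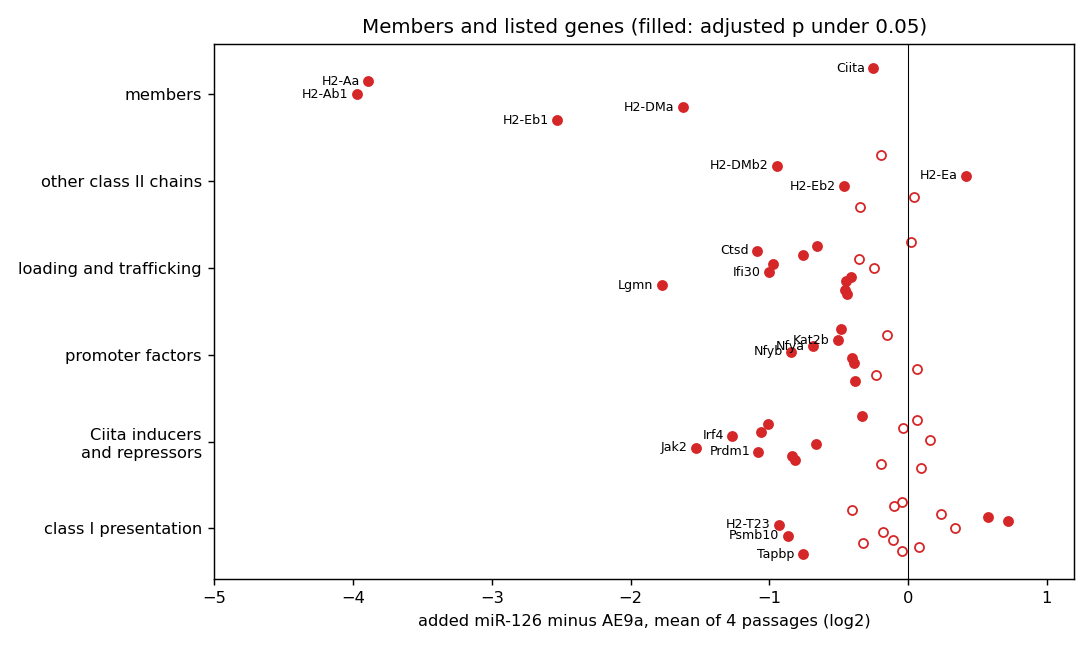
Difference in log2 level between added miR-126 and AE9a, averaged over 4 passages (horizontal axis), for the 5 genes and 5 lists; each point is a gene, filled where the limma adjusted p was under 0.05. H2-Ab1 (-3.97) and H2-Aa (-3.89) lie outside the range of all other points, the lowest of which in the other lists is Lgmn at -1.78.

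Class I presentation, the route to CD8+ T cells, did not move one way, with 2 of 15 genes higher and 3 lower with added miR-126 against AE9a (median -0.10), a share of lower genes near that of all genes (24.3%). H2-T23 (-0.93), the immunoproteasome subunit gene Psmb10 (-0.87) and Tapbp (-0.76) were lower, and H2-Q4 was higher (0.72). Against the knockout, Psmb10 (-1.18), H2-T23 (-1.01) and Tapbp (-0.98) led 5 lower genes and 2 were higher. In AE9a at passage 1, 5 of 15 were below normal (5.64% of all genes were), led by Psmb9 (-1.53) and Tap2 (-1.23). Surface molecules of antigen-presenting cells were lower in 8 of 11 against AE9a (median -0.83), with Havcr2 at -2.95, Cd274 at -2.42 and the costimulator Cd86 at -2.26, where 24.3% of all genes were lower. Against the knockout 6 of 11 were lower, with Havcr2 at -2.91, Cd274 at -2.74 and Cd86 at -2.48. At passage 1, 3 of these genes were above normal in AE9a, 5 in the added arm and 7 in the knockout. Of all 22180 genes, 715, 1011 and 1083 were higher in these comparisons. Icam1 led in AE9a (2.77) and in the added arm (3.35), and Havcr2 in the knockout (4.93).

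The markers of cell types that carry class II are given beside these results. B cell markers averaged 7.34 to 8.02 (log2) in normal cells, 5.15 to 6.52 in AE9a, 5.08 to 6.11 in the knockout, 5.14 to 6.49 with added miR-126 at passage 1 and 5.12 to 5.53 at passages 2 to 4. Against normal at passage 1, 12 of 18 were lower in AE9a, 13 in the added arm and 15 in the knockout, with Spib at -2.62, -2.91 and -3.65. The shares of all genes lower in these comparisons were 5.64%, 5.18% and 5.91%. Added miR-126 against AE9a had 2 of 18 lower, Cd79a at -1.57 and Blnk at -0.65, and Igll1 higher at 1.62. In the late mice Cd79a read 4.29 to 5.52, Ms4a1 4.09 to 5.19 and Pax5 5.23 to 5.67.

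Monocyte and macrophage markers were mostly lower with added miR-126 from passage 2 on. They averaged 7.72 to 7.99 in normal cells, 7.44 to 8.78 in AE9a, 7.39 to 8.75 in the knockout, 7.62 to 7.81 with added miR-126 at passage 1 and 6.81 to 7.35 at passages 2 to 4. At passage 1 the 3 AE9a mice (7.44, 7.46 and 7.48) lay below the 3 mice with added miR-126. Averaged over passages, against AE9a 17 of 21 were lower with added miR-126 (24.3% of all genes were), with Fcgr4 at -2.73 and Itgam at -2.57, and Cd163, a haemoglobin scavenger receptor, was higher at 3.02. Against the knockout 16 of 21 were lower and 2 higher, with Fcgr4 at -3.75 and Fcgr1 at -3.22. Dendritic cell markers did not go one way, with 4 of 16 lower and 2 higher against AE9a, Itgax at -1.58 and Flt3 at 1.48. They averaged 5.79 to 6.33 in AE9a and 5.53 to 6.12 in the late mice with added miR-126. T cell markers were lower in 7 of 10 (Cd3g -1.94), mast cell, basophil and eosinophil markers in 7 of 12 (Cpa3 -3.42) and neutrophil markers in 13 of 14 (Camp -2.52). In the knockout against AE9a, 8 of 10 T cell markers and 13 of 14 neutrophil markers were lower, where 1173 of all 22180 genes were. The part of these cell types in the class II values was not tested.

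**Figure D4:**
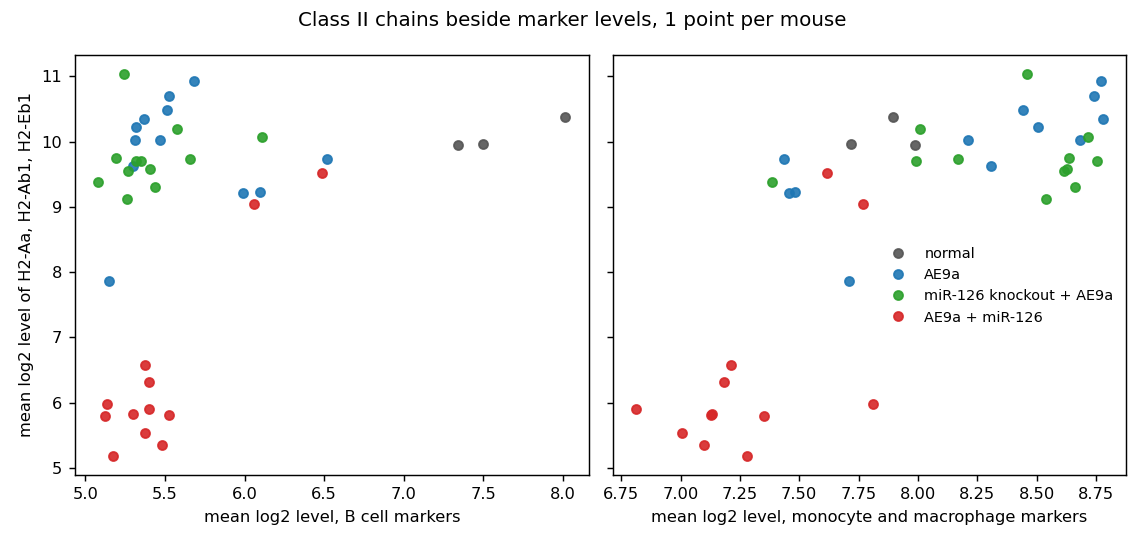
Mean log2 level of H2-Aa, H2-Ab1 and H2-Eb1 (vertical axis) against the mean level of B cell markers (left) and of monocyte and macrophage markers (right), 1 point per mouse. AE9a and knockout mice lie at B cell marker levels of 5.08 to 6.52 and normal mice at 7.34 to 8.02, and the 9 late mice with added miR-126, at monocyte levels of 6.81 to 7.35, lie lowest together with 1 mouse of passage 1 of that arm.

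The 2 mice that stood apart differed in their markers as well. Replicate 2 of added miR-126 at passage 1, with H2-Aa at 5.97, H2-Ab1 at 5.65 and H2-Eb1 at 6.29, kept H2-DMa at 8.84, the highest of its group, and Ciita at 6.06. Its B cell markers averaged 5.14 against 6.49 and 6.06 in the other mice of its group, its dendritic markers 5.62 against 6.18 and 5.94, and its monocyte markers 7.81 against 7.62 and 7.77. Its neutrophil markers averaged 9.98 against 11.51 and 11.31, and its T cell markers 5.59 against 6.30 and 6.01. Replicate 1 of AE9a at passage 3 was low in H2-Aa (8.02), H2-Ab1 (8.16), H2-Eb1 (7.39) and H2-DMa (7.89). Its monocyte markers averaged 7.71 against 8.74 and 8.77, and its B cell markers 5.15 against 5.52 and 5.69. Its T cell markers averaged 5.33 against 6.07 and 6.57, and its surface genes of antigen-presenting cells 7.20 against 8.44 and 8.48. The part of these cells in the values of either mouse was not tested.

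Ciita and the genes it drives were compared across the 12 mice of each arm, 12 relations in all. In AE9a and the knockout Pearson's r ran from 0.23 to 0.48, and no relation passed after Benjamini-Hochberg adjustment over the 12. The strongest was H2-Aa in the knockout (r = 0.48, permutation p = 0.114, adjusted 0.541; rho = 0.48, permutation p = 0.122, adjusted 0.294). Without the 2 mice farthest from the median of Ciita its r was 0.26. In AE9a, H2-Eb1 gave r = 0.46 (permutation p = 0.136, adjusted 0.541) and rho = 0.60 (permutation p = 0.0435, adjusted 0.222), and r = 0.33 without the 2 farthest mice. In the added arm r ran from -0.07 to 0.21, but the chains lay at separate levels at passage 1 and later, so these values are not read. All of these r pool the passages of an arm. With group means subtracted, r was 0.71 to 0.81 in AE9a, 0.14 to 0.49 in the knockout and 0.13 to 0.47 in the added arm. These last values were not tested. In AE9a the spread within groups was largest at passage 3, which holds the low replicate 1. The SD of H2-Aa was 1.59 there and 0.08 to 0.30 at the other passages. The r without that mouse was not computed.

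The genes whose 13 group means lay closest to the mean of H2-Aa, H2-Ab1 and H2-Eb1 were Wdfy3 (r = 0.943), Pla2g7 (0.942), Rchy1 (0.940), P2ry1 (0.939), Ipmk (0.938) and Pih1d1 (0.937). Of these, Pla2g7, a secreted phospholipase of macrophages, had a difference between added miR-126 and AE9a (-3.92) between those of H2-Aa and H2-Ab1, and the others ranged from -1.59 for P2ry1 to -0.55 for Pih1d1. Closest to Ciita were Kmo (r = 0.867), Insl6 (0.865), Rdh5 (0.830) and H2-T24 (0.828). Kmo, an enzyme of tryptophan breakdown, read 8.13 to 9.27 in normal cells and 5.69 to 7.60 in AE9a and the knockout.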

How the data were processed

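RNA of sorted donor cells from 39 mice was hybridised to Affymetrix Mouse Gene arrays. The authors deposited 1 log2 value per array for each of 27037 probe sets, made with RMA and Partek 6.0 per the submitters' processing notes. The sources used here do not state background settings, filters or batches, and the number of arrays limits the precision. RMA sets all arrays to a common distribution of probe intensities, which can compress or stretch differences where many genes shift.

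Probe sets with 1 symbol in the platform annotation were kept (23521; 1814 had several and 1702 none), and the probe set with the highest mean stood for each of 22180 genes. A limma 3.58.1 model in R 4.3.3 fitted 13 group means to 39 arrays (26 residual degrees of freedom), with Benjamini-Hochberg adjustment over all genes and a threshold of 0.05. Correlations used 100000 permutations (Python 3.11.15, scipy 1.17.1). The fit was tested on simulated data.

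The genes and lists (159 of 173 listed symbols measured) were chosen with earlier results of these data known. Named from each list were up to 3 genes past the threshold with the largest differences, in the averages over passages and against normal at passage 1. Other single genes were named after their values were seen, as was the division of the added arm at passage 2. Sequences are from RefSeq (GRCm38.p6).

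Same-numbered mice of different groups correlated at -0.67 to 0.63 in their deviations (median -0.02, over 0.1 in 68 of 234 pairs), so the numbers were not used as pairs.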

Additional observations from a re-analysis of the deposited data

Results flagged for a closer look

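In the main fit, the difference between added miR-126 and AE9a changed between passages 1 and 4 for 4 genes, by a test of the change itself (limma, adjusted over all genes). The change was -4.60 (log2) for H2-Aa, -4.33 for H2-Ab1, -2.40 for H2-Eb1 and -2.99 for H2-DMa. At passage 4 all 3 mice with added miR-126 lay below all 3 AE9a mice for each of these genes. At passage 1 the arms overlapped for the chains, and the added arm lay above AE9a for H2-DMa. How many of all genes separate so was not counted, while at passage 4 12% of all genes were called lower. The mice of passage 1 include the one with low chains, without which the H2-Aa change was -5.79 and the H2-Ab1 change -5.64. The H2-Eb1 call was lost in 9 of 12 fits without 1 mouse, and after cyclic loess or quantile normalization. Without the arrays of low spread, the calls of H2-Ab1 and H2-Eb1 were lost. Monocyte and macrophage markers averaged 7.62 to 7.81 with added miR-126 at passage 1 and 6.81 to 7.35 later, and their part in the change was not tested.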

How the results depend on the processing

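With 3 mice per group, single-passage calls rest on few mice. Counts of members called, of 5, changed as follows, with all genes called in either direction, of 22180, in brackets. With the compared groups fitted alone, AE9a at passage 4 against 1 went from 1 to 4 (652 to 1485 genes). The change of the knockout difference went from 0 to 4 (95 to 424 genes). Array weights called more of all genes in each comparison listed here. With them, added miR-126 against normal at passage 1 went from 2 to 4 (2159 to 8273 genes) and knockout against normal from 0 to 1 (2393 to 6099). Passage 4 against 1 went from 3 to 5 with added miR-126 (5395 to 16509) and from 0 to 1 in the knockout (897 to 3634). The change of the knockout difference went from 0 to 2 (95 to 1731). Ciita in the added arm reversed to 0.26 (passage 4 against 1, adjusted p = 0.00362). AE9a against normal at passage 1 (1967 genes) went from 2 to 1 with cyclic loess (3021), quantile normalization (2034) or a 2-fold minimum (1089). Added miR-126 against normal went from 2 to 1 with the 2-fold minimum (2159 to 1223). Without the 8 arrays of low spread, passage 4 against 1 in the knockout went from 0 to 1 and the change of the added miR-126 difference from 4 to 2. With the passage as the unit, the average went from 5 to 0 against AE9a (12211 genes to 1) and from 5 to 3 against the knockout (11016 to 267). Fewer units enter that fit.

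Leaving out 1 mouse or passage gave 4 to 5 members for added miR-126 against AE9a and 4 to 5 against the knockout, 0 to 2 for AE9a against normal, 1 to 4 for added miR-126 against normal, 0 to 1 for AE9a at passage 4 against 1, 3 to 4 for that step with added miR-126 and 3 to 4 for the change of the added difference. It gave 0 for the knockout comparisons with AE9a and normal, its passage step and its change. The number of all genes called in each of these fits is not given here, so these member counts have no background. The cause of the shifts in these counts was not tested.

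The replicate block changed no call of these comparisons other than H2-Eb1 in the change of the added miR-126 difference (adjusted p = 0.0559). Reading members by a second probe set gave no value, since each has 1. Over all genes, added miR-126 against AE9a called 12211, and 7872 after cyclic loess and 8563 after quantile normalization. The median of all genes for passage 4 against 1 with added miR-126 was 0.13, and near 0 (0.002 and 0.02) after these scalings. For AE9a at passage 4 against 1, 31.1% of called genes were lower, 43.1% after cyclic loess and 45.6% after quantile normalization.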
